A study of Saccharomyces cerevisiae with 6 samples.

Results

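The small subunit processome is the large nucleolar assembly that folds and cuts the precursor of 18S ribosomal RNA, and the genes described here encode its proteins, the proteins of the small nucleolar ribonucleoproteins (snoRNPs) that modify ribosomal RNA, and factors that finish the 40S subunit. A list of 47 such genes was set by gene name, with earlier results of these data known, and 45 further genes of the pathway that are outside it are given for comparison. All 47 were found in the platform annotation, each with 1 probe set, among 5449 genes measured. The list was divided by known role into 8 subgroups, and every gene of it is accounted for below.

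The arrays came from budding yeast (Saccharomyces cerevisiae) in which SSE1, the gene of an Hsp110 chaperone, is deleted. The first group of 3 arrays was from cells that carry an empty plasmid, and the second group of 3 from cells that carry the yEVenus multi-copy plasmid, which encodes a yellow fluorescent protein foreign to yeast. The question of the study was which genes respond when a gratuitous protein is overproduced in this sensitised strain. Each array came from an independent colony grown at 30 °C in medium without leucine to an OD600 of 0.6, the exponential phase. Both groups lack SSE1 and no strain with SSE1 is part of the series, so every difference is between plasmids within 1 deletion background. The labels name neither the promoter that drives yEVenus nor the selection marker, and no probe set measures yEVenus. SSE1 itself was at background in both groups, where its log2 level was 3.14 ± 0.116 (SD, n = 3) in empty-plasmid cells and 3.17 ± 0.071 (SD, n = 3) in yEVenus cells, as the labels say.

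In yeast, the processome forms on the nascent pre-rRNA in steps. The UTP-A subcomplex binds the 5' external transcribed spacer first, UTP-B and the U3 snoRNP follow, and U3 pairs with the pre-rRNA to hold it for folding and cleavage. Box C/D snoRNPs guide 2'-O-methylation and box H/ACA snoRNPs guide pseudouridylation. Genes for ribosome biogenesis are known to be expressed together and to follow growth rate and nutrient signals through the TORC1 and protein kinase A pathways.

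Most of these genes were lower in cells with the yEVenus plasmid. Of the 47 genes, 40 fell, 2 rose and 5 did not pass the test, where "fell" and "rose" stand for an adjusted p under 0.05 in limma after Benjamini-Hochberg adjustment over all 5449 genes. Over all genes, 41.0% fell and 29.3% rose, so 70.4% were called in either direction. Against that background the falls made up 85.1% of the 47. The median log2 difference, yEVenus minus empty plasmid, was -0.54 for the 47 genes and -0.07 for all genes. A difference of -0.54 means that the median gene had 68.9% of its level with the empty plasmid. The differences ran from -0.90 (NOP14) to 0.28 (GAR1), so the largest change in the list was 1.86-fold. Of the 47, 25 had a difference below -0.5, compared with 12.9% of all genes. The arrays measure RNA of whole cultures, in which fewer cells that express a gene and less RNA per cell cannot be told apart.

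The groups were separated on single arrays as well. For 40 genes every empty-plasmid array was above every yEVenus array, for 2 genes the order was the opposite, and for 5 the groups overlapped. Over all genes, 43.4% were separated with yEVenus lower and 74.9% in either direction. The levels of the 47 genes lay between 6.89 and 12.72 on the log2 scale on all arrays, well above the 3.14 of the deleted SSE1.

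**Figure D1:**
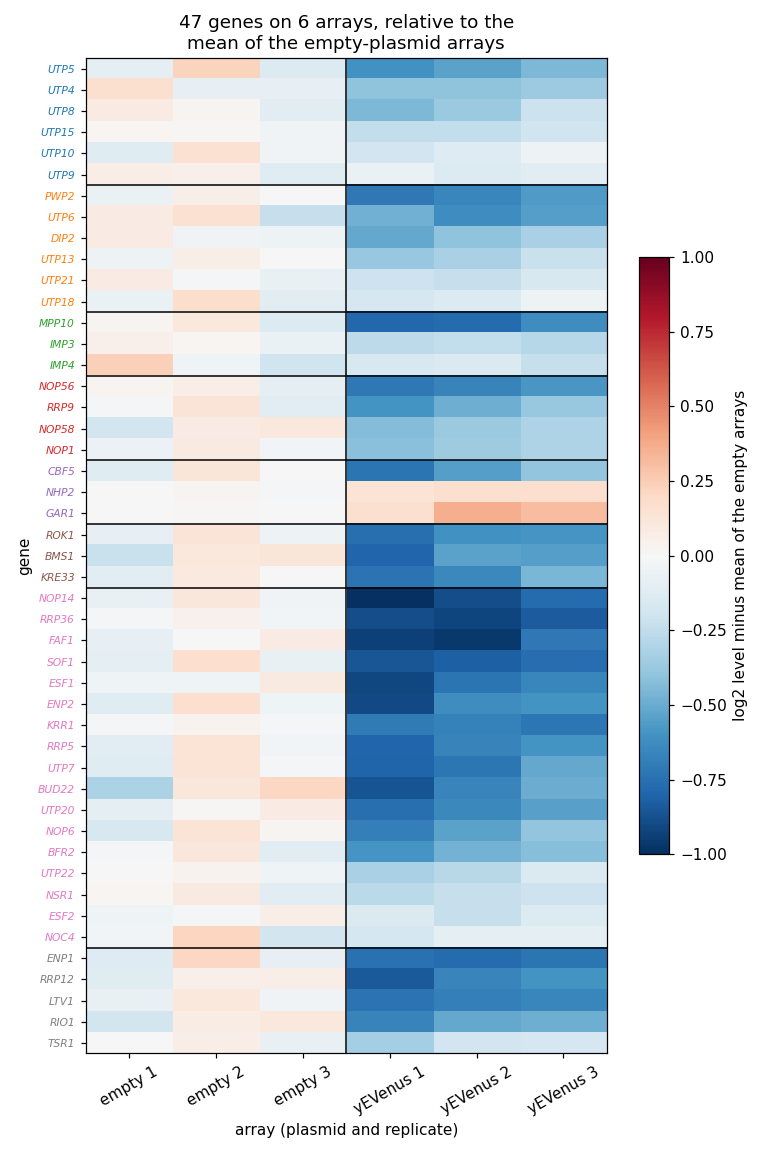
Log2 level of each of the 47 genes on each of the 6 arrays, minus that gene's mean over the 3 empty-plasmid arrays; rows are grouped by role, with name colours for the 8 subgroups, and ordered by difference. The yEVenus columns are lower (blue) for all rows except GAR1 and NHP2, and the rows of UTP9, UTP10, UTP18, IMP4 and NOC4, which did not pass the test, are among the palest.

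The length of a gene moved with the result. Across all 5449 genes the Spearman rho of log2 difference and gene length was -0.46, with short genes mostly higher and long genes mostly lower with yEVenus. The 47 genes had a median length of 1665 nt and all genes one of 1236 nt. Control probe sets at the 3' and 5' ends of 7 yeast transcripts moved too: the gap between them averaged 1.83 ± 0.029 (SD, n = 3 arrays) on the log2 scale in empty-plasmid cells and 2.48 ± 0.067 (SD, n = 3 arrays) in yEVenus cells, and was larger on every yEVenus array for 7 of 7 genes. An exact two-sided permutation test of the array means gave p = 0.1, the smallest that 3 against 3 arrays allow. The part of this gap in the result was not tested. A second set of values is therefore given for the subgroups and lists, in which the trend of each array's deviations on log2 gene length was removed. In that fit 32 of the 47 genes fell and 1 rose, against 33.5% and 31.4% of all genes, and the median of the 47 was -0.36. The correction also raises long genes with no transcript. The deleted SSE1 went from a difference of 0.03 to 0.20 and was then called as risen (limma, adjusted p = 0.0305), which is a false call of the corrected fit and as large as the rise of UTP10 in it.

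In each of 6 length classes the median of the 47 genes was below that of all genes of the class. The class up to 600 nt holds only 2 of the 47, of which 1 fell and 1 rose. In the class from 1200 to 1800 nt, 16 of 19 fell with a median of -0.56, where 51.9% of all genes of that class fell with a median of -0.19. In the class from 600 to 1200 nt, 6 of 8 fell with a median of -0.45, where the class had 34.5% falls and a median of -0.0045. Above 3600 nt, 4 of 5 fell with a median of -0.65, where the class had 69.3% falls and a median of -0.28. Of those 5, 3 were below the median of the class. Among the 47 genes themselves the Spearman rho of difference and length was -0.08, and 0.29 with the length trend removed, given as a description over 47 genes that share the same 6 arrays.

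**Figure D2:**
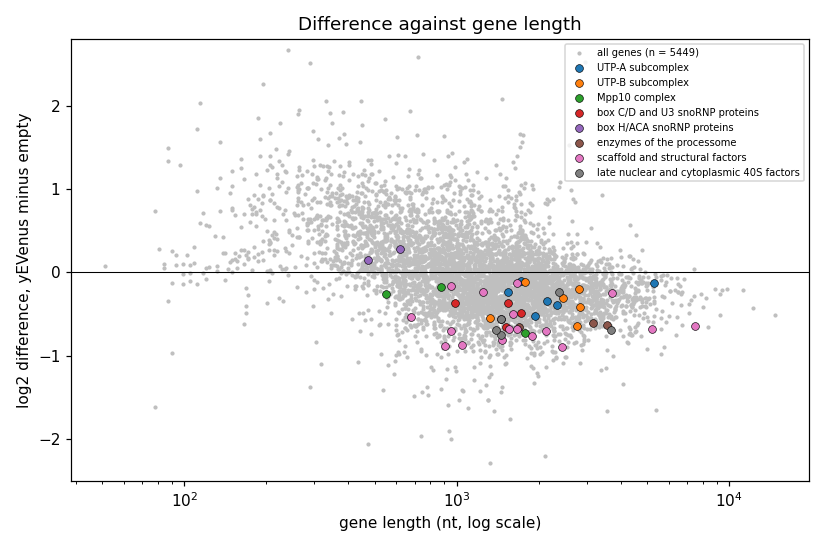
Log2 difference, yEVenus minus empty plasmid, against gene length in nt on a log scale, for 5449 genes (grey) and the 47 genes coloured by subgroup. The grey cloud slopes downward with length, and most coloured points lie in its lower part, with GAR1 and NHP2 above 0 among the short genes.

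The UTP-A subcomplex, the first to bind the pre-rRNA, had 4 falls among 6 genes and a median of -0.29. The median length of these 6 was 2037 nt. Over all genes 41.0% fell, and in the class from 1800 to 2400 nt 54.0% fell with a median of -0.21. UTP5 (YDR398W) fell most. It had log2 levels of 10.25, 10.56 and 10.20 with the empty plasmid and of 9.73, 9.80 and 9.89 with yEVenus. The difference was -0.53 ± 0.0976 (SE; limma, adjusted p = 0.00172), and no array of one group reached the other. UTP4, UTP8 and UTP15 fell by 0.39, 0.34 and 0.23. UTP9 (YHR196W) had levels of 10.15, 10.14 and 9.97 against 10.02, 9.95 and 9.98, so that the lowest empty-plasmid array lay among the yEVenus arrays. Its difference of -0.10 had a 95% interval from -0.25 to 0.04 (limma, adjusted p = 0.175), but without empty-plasmid replicate 3 it passed at -0.16 (adjusted p = 0.0354). UTP10 (YJL109C), the largest protein of the subcomplex, had levels of 10.01, 10.29 and 10.10 against 9.94, 10.00 and 10.08, also with overlap. Its difference was -0.12, with an interval from -0.31 to 0.06 (adjusted p = 0.191). After removal of the length trend, UTP5 was the only one of the 6 that fell (-0.38), while UTP10, at 5310 nt, turned to 0.20 and rose (adjusted p = 0.0244). In that fit 33.5% of all genes fell.

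The UTP-B subcomplex, a set of WD40-repeat and helical-repeat proteins that joins UTP-A with the U3 snoRNP, had 5 falls among 6 genes and a median of -0.36. The median length of these 6 was 2613 nt. Over all genes 41.0% fell, and in the class from 2400 to 3600 nt 61.6% fell with a median of -0.25. PWP2 (YCR057C) had levels of 9.46, 9.59 and 9.53 with the empty plasmid and of 8.81, 8.87 and 8.96 with yEVenus. The groups lay 0.50 apart at their nearest arrays, and the difference was -0.65 ± 0.0596 (SE; limma, adjusted p = 5.54e-05). UTP6 fell by 0.55, DIP2 by 0.41, UTP13 by 0.31 and UTP21 by 0.20. UTP18 (YJL069C) had levels of 10.16, 10.41 and 10.12 against 10.06, 10.09 and 10.18. One yEVenus array was thus above 2 of the empty-plasmid arrays, and the difference of -0.12 had an interval from -0.31 to 0.07 (adjusted p = 0.222). The call of UTP21 was lost under median centring (-0.13), under cyclic loess (-0.12) and without yEVenus replicate 2 (-0.18, adjusted p = 0.055). After removal of the length trend, PWP2 (-0.40) and UTP6 (-0.39) still fell and the other 4 did not pass. In that fit 33.5% of all genes fell.

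Of the 3 genes of the Mpp10 complex, 2 fell, where 41.0% of all genes did. Mpp10 is the scaffold that Imp3 and Imp4 bind, and Imp3 and Imp4 promote pairing of U3 with the pre-rRNA. MPP10 (YJR002W) had levels of 8.43, 8.51 and 8.27 against 7.62, 7.63 and 7.79, a difference of -0.73 ± 0.0774 (SE; limma, adjusted p = 0.000107). IMP4 (YNL075W) had levels of 9.97, 9.68 and 9.53 against 9.57, 9.59 and 9.50. Its lowest empty-plasmid array lay within the yEVenus range, and the difference of -0.18 had an interval from -0.42 to 0.06 (adjusted p = 0.16). Without empty-plasmid replicate 3 IMP4 passed at -0.28 (adjusted p = 0.0331). IMP3 (552 nt) fell by 0.26, and by 0.53 with the length trend removed. IMP4 was at -0.20 and MPP10 at -0.59 with that trend removed, and MPP10 still fell.

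All 4 genes of box C/D and U3 snoRNP proteins fell, with a median of -0.43, where 41.0% of all genes fell. NOP56 (YLR197W), which with Nop58 forms the core of every box C/D snoRNP, had levels of 11.92, 11.96 and 11.80 against 11.18, 11.23 and 11.31. The groups were separated by 0.48 and the difference was -0.65 ± 0.0635 (SE; limma, adjusted p = 7e-05). NOP1 (YDL014W), the fibrillarin methyltransferase of yeast, changed least of the 4, with levels of 12.52, 12.67 and 12.55 against 12.16, 12.23 and 12.27. Its difference was -0.36 ± 0.0593 (SE; limma, adjusted p = 0.000937), again with no overlap. NOP58 fell by 0.37 and RRP9, the WD40 protein specific to U3, by 0.49. All 4 still fell with the length trend removed, from -0.51 for NOP56 to -0.23 for NOP58 (limma, adjusted p = 0.0475). In that fit 33.5% of all genes fell.

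The box H/ACA snoRNP genes divided. CBF5 (YLR175W), the pseudouridine synthase, had levels of 12.21, 12.45 and 12.33 with the empty plasmid and of 11.60, 11.78 and 11.93 with yEVenus. It fell by 0.56 on the log2 scale, to 67.9% of its level with the empty plasmid (limma, adjusted p = 0.0012). GAR1 (YHR089C), whose glycine- and arginine-rich protein binds Cbf5, had levels of 12.21, 12.23 and 12.20 against 12.38, 12.57 and 12.52. It rose by 0.28 ± 0.0616 (SE; adjusted p = 0.0043), with every yEVenus array above every empty-plasmid array. NHP2 (YDL208W), an RNA-binding core protein, had levels of 12.55, 12.58 and 12.54 against 12.69, 12.72 and 12.72 and rose by 0.15 ± 0.0459 (SE; adjusted p = 0.017).

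These 2 rises changed with the correction for gene length. NHP2 is 471 nt long, and in the class up to 600 nt 70.3% of all genes rose. GAR1, at 618 nt, is in the class from 600 to 1200 nt, of which 34.6% rose and 34.5% fell. With the length trend removed GAR1 was at 0.09 (adjusted p = 0.218) and NHP2 turned to -0.21 and fell (adjusted p = 0.00574), while CBF5 stayed lower at -0.40 (adjusted p = 0.0083). NHP2 also lost its call without yEVenus replicate 2 (0.15, adjusted p = 0.053) and without replicate 3 (0.15, adjusted p = 0.0578). NOP10, the fourth core gene of the H/ACA snoRNP and not one of the 47, rose by 0.70 (limma, adjusted p = 1.6e-05). At 177 nt it was shorter still, and was at 0.11 with the length trend removed (adjusted p = 0.0758).

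**Figure D3:**
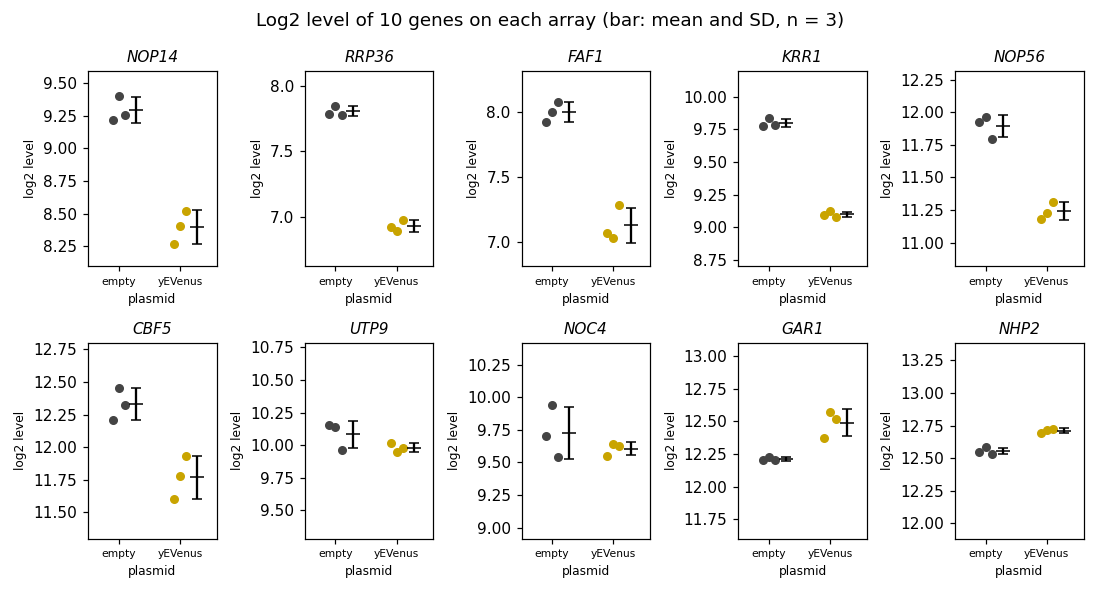
Log2 level of 10 of the 47 genes on each array, 3 with the empty plasmid (grey) and 3 with yEVenus (yellow), with the mean and SD beside each group; every panel spans 1.5 log2 units. NOP14, RRP36, FAF1, KRR1, NOP56 and CBF5 are separated with yEVenus lower, UTP9 and NOC4 overlap, and GAR1 and NHP2 are separated with yEVenus higher.

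All 3 enzymes of the processome fell, with differences from -0.65 to -0.61. Over all genes 41.0% fell, and in the class from 2400 to 3600 nt, which holds KRE33 and BMS1, 61.6% fell. ROK1 (YGL171W), a DEAD-box RNA helicase that releases the guide snR30, had levels of 8.99, 9.20 and 9.02 against 8.31, 8.47 and 8.48. The difference was -0.65 ± 0.0739 (SE; limma, adjusted p = 0.000146). KRE33 (YNL132W), the acetyltransferase that modifies cytidines of 18S rRNA, had levels of 10.55, 10.75 and 10.66 against 9.92, 10.01 and 10.20, and a difference of -0.61 ± 0.0854 (SE; adjusted p = 0.000402). BMS1, a GTPase, fell by 0.63. In none of the 3 did the groups overlap, where 43.4% of all genes were separated with yEVenus lower. All 3 fell with the length trend removed, with differences of -0.52 for ROK1 and -0.34 for both KRE33 and BMS1. In that fit 33.5% of all genes fell.

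The 5 largest falls were among the 17 scaffold and structural factors, of which 16 fell, with a median of -0.68. Over all genes 41.0% fell. NOP14 (YDL148C), which forms a complex with Noc4 and binds Emg1, had levels of 9.22, 9.40 and 9.26 with the empty plasmid and of 8.27, 8.40 and 8.52 with yEVenus. It was 1.86-fold lower, a difference of -0.90 ± 0.0798 (SE; limma, adjusted p = 4.76e-05). NOC4 (YPR144C), its partner, had levels of 9.70, 9.94 and 9.54 against 9.55, 9.64 and 9.63, with overlap. Its difference of -0.12 had an interval from -0.35 to 0.10 (adjusted p = 0.283), which does not reach the interval of NOP14, from -1.08 to -0.71. Without empty-plasmid replicate 2 the difference of NOC4 was -0.02, and without replicate 3 it was -0.22.

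Other falls of this subgroup were close to that of NOP14. RRP36, an early processome factor, was 1.84-fold lower and FAF1, which binds Krr1, 1.83-fold lower, and both stood among the lowest 127 differences of all 5449 genes. RRP36 had the smallest adjusted p of the list (limma, 8.14e-06), with groups 0.80 apart at their nearest arrays. SOF1, a WD40 protein, fell by 0.81, ESF1 by 0.76, ENP2 by 0.71 and KRR1, a KH-domain protein that binds the pre-rRNA, by 0.70. RRP5, whose S1-domain protein is needed for both subunits, fell by 0.68, UTP7 by 0.68, BUD22 by 0.67 and UTP20, the longest gene of the list at 7482 nt, by 0.65. NOP6 fell by 0.54 and BFR2 by 0.50. The smaller falls were those of UTP22 of the UTP-C subcomplex (-0.25), NSR1, the nucleolin of yeast (-0.24), and ESF2, which stimulates the helicase Dbp8 (-0.17).

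With the length trend removed, 14 of the 17 fell, where 33.5% of all genes did. RRP36 was then at -0.88, FAF1 at -0.81 and KRR1 at -0.69, close to their first values, while NOP14 was at -0.68, RRP5 at -0.36 and UTP20 at -0.30. UTP22, at 3714 nt, turned to 0.04 and NSR1 to -0.08, and neither passed. The fall of ESF2 did not pass under cyclic loess (-0.08), median centring (-0.10) or quantile normalization (-0.13), nor without empty-plasmid replicate 3 or yEVenus replicate 2 (-0.14 each).

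All 5 late nuclear and cytoplasmic 40S factors fell, with a median of -0.69, where 41.0% of all genes fell. ENP1 (YBR247C), which leaves the nucleus with the pre-40S particle, had levels of 10.37, 10.70 and 10.42 against 9.75, 9.72 and 9.76. It was 1.68-fold lower (limma, adjusted p = 0.000165). TSR1 (YDL060W), a GTPase-like protein that binds the cytoplasmic pre-40S particle, had levels of 9.94, 10.01 and 9.87 against 9.60, 9.75 and 9.77. The groups lay only 0.10 apart, and the difference was -0.23 ± 0.0649 (SE; adjusted p = 0.0127). RRP12, a HEAT-repeat export factor, fell by 0.70, LTV1, whose release is needed for maturation, by 0.69, and the atypical kinase gene RIO1 by 0.56. With the length trend removed 4 of the 5 fell, where 33.5% of all genes did. These 4 ran from -0.59 for ENP1 to -0.40 for RIO1, and TSR1, at -0.02, did not pass. TSR1 did not pass under cyclic loess either (-0.15, adjusted p = 0.0798).

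**Figure D4:**
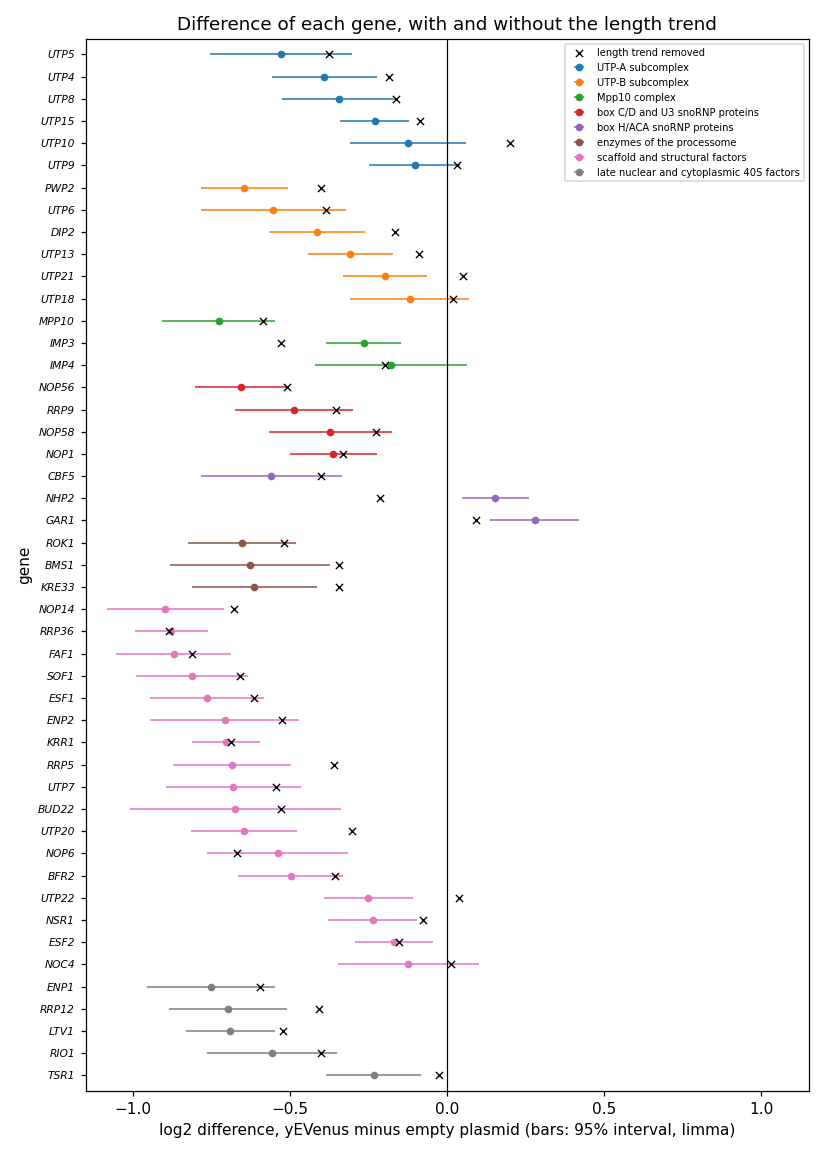
Log2 difference of each of the 47 genes, yEVenus minus empty plasmid, with its 95% interval from limma (coloured by subgroup), and the difference with the length trend removed (black crosses). Most intervals lie below 0, and the crosses lie to the right of the points for long genes such as UTP20 and RRP5 and to the left for the short genes IMP3, NOP6, GAR1 and NHP2.

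Most of the 47 genes varied together between colonies of one group. The mean log2 level over the 47 was 10.08, 10.21 and 10.09 on the empty-plasmid arrays and 9.59, 9.66 and 9.73 on the yEVenus arrays. On yEVenus replicate 3, 39 of the 47 genes had the highest level of their group, where 33.2% of all genes did, and on replicate 1, 37 had the lowest, where 32.8% of all genes did. On empty-plasmid replicate 2, 30 of the 47 were highest and 0 were lowest, where 31.7% and 34.1% of all genes were. These shares of all genes were not matched for gene length. The 60S assembly list had array means of 10.08, 10.18 and 10.08 against 9.60, 9.67 and 9.70. The other 45 genes of the pathway had 9.71, 9.77 and 9.67 against 9.47, 9.49 and 9.50. On the yEVenus arrays these means rose in the same order as those of the 47, but over a smaller range, with an SD of 0.0168. On yEVenus replicates 1, 2 and 3, 21, 24 and 22 of those 45 were above their group mean, where 6, 24 and 42 of the 47 were. The array means of the 47 had an SD of 0.0681 among empty-plasmid arrays and of 0.0712 among yEVenus arrays, and the group means differed by -0.47.

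Chromosome position touched few of these genes. Chromosomes I and II had lower medians than the other chromosomes, -0.44 and -0.32 over 90 and 387 genes. None of the 47 lies on chromosome I and 2 lie on chromosome II, UTP20 and ENP1. Without the genes of both chromosomes, 38 of the remaining 45 fell and 2 rose, with a median of -0.53. In that fit 1942 of all 4972 remaining genes fell and 1513 rose.

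Other genes of the same pathway, 45 that are not among the 47, had 27 falls, 6 rises and 12 genes that did not pass, with a median of -0.34. Over all genes 41.0% fell and 29.3% rose. Their median length was 1020 nt. The largest falls were those of NOP19 (-1.07; limma, adjusted p = 0.000255), BUD21, the Utp16 protein (-0.89; adjusted p = 7.86e-06), and LCP5 (-0.79; adjusted p = 4.59e-05). The 6 rises were in genes of 702 nt or less: FYV7 (0.84), EFG1 (0.74), NOP10 (0.70), SNU13, the box C/D core protein (0.32), RRT14 (0.29) and FCF1, the Utp24 endonuclease (0.21). With the length trend removed FYV7 and EFG1 still rose (0.45 and 0.63), SNU13 turned to -0.18 and fell, and in all 24 of the 45 fell and 2 rose. In that fit 33.5% of all genes fell and 31.4% rose. Whether the 47 and the 45 differ was not tested.

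Lists for the neighbouring steps had mostly falls, where 41.0% of all genes fell and 29.3% rose. Of 66 factors of 60S subunit assembly, 57 fell and 1 rose, with a median of -0.41, led by RRP14 (-1.54; limma, adjusted p = 2.13e-05) and MAK16 on chromosome I (-1.16; adjusted p = 1.13e-05). The single rise was TIF6 (0.25; adjusted p = 0.00422), and MRT4 was at 0.13 (adjusted p = 0.184). Of 26 genes for subunits and factors of RNA polymerases I and III, 17 fell and 6 rose, with a median of -0.40. RRN6, on chromosome II, was at -0.85 (adjusted p = 4.41e-05) and RPA43 at -0.69 (adjusted p = 0.00014), while the short genes RPA14 and RPA12 rose by 0.78 and 0.57 (adjusted p = 2.94e-05 and 0.000299). With the length trend removed 48 of the 66 and 16 of the 26 fell, where 33.5% of all genes did. The share of falls was thus 86.4% for 60S assembly and 85.1% for the 47 genes.

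**Figure D5:**
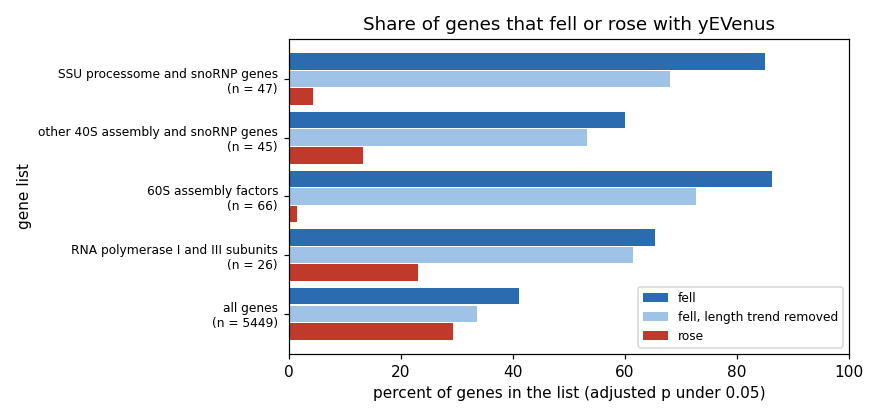
Percent of genes in each list that fell with yEVenus (dark blue), fell with the length trend removed (light blue) or rose (red), at an adjusted p under 0.05 in limma. The 47 genes and the 60S assembly factors have 85.1% and 86.4% falls, above the other 2 lists and the 41.0% of all genes.

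Among 13 genes of regulators of ribosome biogenesis or ribosomal protein genes, not split into activators and repressors, 11 fell and 0 rose, with a median of -0.36. CRF1, counted as a fall, was low in both groups, with means of 4.68 and 4.13. MAF1 (-0.09) and TOR1 (0.04) did not pass. Of all genes 41.0% fell, and of those from 2400 to 3600 nt 61.6%. The 3 with the smallest p were DOT6 (-0.64; limma, adjusted p = 4.26e-05), a repressor that binds the PAC element, RIM15 (-0.52; adjusted p = 0.000122), a kinase of stationary phase entry, and FHL1 (-0.51; adjusted p = 0.000305), a factor at ribosomal protein genes. The median length of the 13 was 2475 nt, and with the length trend removed 7 fell and 1, TOR1, rose, where 33.5% of all genes fell.

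Of 13 markers of stationary phase, 9 rose and 0 fell, with a median of 0.90, and the other 4 did not pass, among them the catalase gene CTT1 at -0.12. Over all genes 29.3% rose, but the median length of the 13 was 507 nt, and of all genes up to 600 nt 70.3% rose, close to the 69.2% of the 13. The sizes differed more, as the median of that length class was 0.43. With the length trend removed 7 rose and 1 fell, where 31.4% of all genes rose, and the median of the 13 was 0.73. The mean level of the 13 was 8.37, 8.96 and 8.36 on the empty-plasmid arrays and 9.60, 9.62 and 9.50 on the yEVenus arrays. Empty-plasmid replicate 2 stood above the other 2 arrays of its group, and it also had the highest mean of the 47 genes in that group. Of 7 a-specific genes 5 rose and 1 fell, with array means from 10.34 to 10.41 against 11.09 to 11.13 and a median length of 630 nt. Of 4 alpha-specific genes 3 rose and 1 fell, with array means between 5.66 and 5.92 over all 6 arrays, and MF(ALPHA)1 was near background, at 3.32 and 3.98. Of all genes 29.3% rose and 41.0% fell. With the length trend removed 5 of the 7 a-specific genes rose and 0 fell, and 2 of the 4 alpha-specific genes rose and 1 fell. In that fit 31.4% of all genes rose and 33.5% fell. The part of any of these in the lower levels of the 47 genes was not tested.

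The arrays also carry probe sets for the ribosomal RNAs, 8 for 18S, 8 for 25S and 1 for 5.8S. The labelling kit primes at poly(A) tails, so these values do not measure the amount of ribosomal RNA. The mean log2 value of the 18S probe sets was 8.30, 9.18 and 10.22 with the empty plasmid and 8.75, 9.26 and 8.82 with yEVenus, and that of 25S was 9.53, 10.09 and 10.63 against 9.65, 9.93 and 9.60. The empty-plasmid arrays spread over the whole yEVenus range for both, and exact two-sided permutation tests gave p = 0.8 and p = 0.4. Leaving out empty-plasmid replicate 3, the array with the highest rRNA values, gave 41 falls and 2 rises among the 47, and leaving out replicate 1, the lowest, gave 40 and 2. Among all 5449 genes 2088 fell without replicate 3 and 2195 without replicate 1.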

How the data were processed

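Total RNA of 6 yeast cultures was measured on Affymetrix arrays, with 3 arrays for each plasmid. Per the labels' protocols, biotin-labelled cRNA was made from 200 ng of RNA with a kit that primes at the 3' end. The authors deposited log2 expression values, 1 per probe set, made with RMA in R 3.2.0 according to tools listed per the submitters' processing notes; no filter is stated there. RMA equalises the distributions of the arrays, so differences are relative to the bulk of transcripts.

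Of 5900 probe sets, 5498 name 1 gene, 0 several and 402 none (137 of these are controls). Symbols were updated through gene identifiers of RefSeq assembly R64, which changed 12. The brightest probe set was kept for 47 genes with several, leaving 5449. Lengths come from R64, whose coordinates are not printed. The test was that of limma 3.58.1, run in R 4.3.3 (lmFit, eBayes, 4 residual degrees of freedom, no block), with Benjamini-Hochberg adjustment over all genes and a threshold of 0.05. The length trend was removed per array by loess (span 0.5). The gene test was run on simulated data with independent noise and known changes in a small part of the genes. The length correction was run on data with only a simulated length trend. Neither setting holds the many changes of these data, so neither shows how well the methods do on them. Only 6 arrays limit the precision.

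The genes and lists were chosen with earlier results of these data known. Any of the 47 genes may be named; values on every array are given for the largest fall and the smallest change of each subgroup and for genes that rose or did not pass. Promoter and protein sequences were not used here, so the planned search for promoter motifs was not run, nor was its alternative spelling. Alternatives were other scalings, probe set rules, variance models, weights per array, a block for the replicate number, length and chromosome corrections, a minimum change, a stricter threshold and leaving out each array. The labels do not say that replicate numbers pair the arrays. Deviations of same-numbered arrays correlated at 0.19, -0.13 and 0.20, and those of other pairs at -0.39 to 0.22. Deviations from a mean of 3 arrays depend on each other, so these values cannot settle whether the arrays are paired.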

Additional observations from a re-analysis of the deposited data

How the results depend on the processing

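Over 22 alternatives, 27 of the 47 genes kept both direction and side of the threshold, and 30 did when a minimum change of 1.2-fold and a threshold of 0.01 were set aside. The 3 scalings of arrays kept 44. The median of the 47 was -0.46 under cyclic loess, -0.36 with the length trend removed and -0.38 when chromosomes I and II were also left out. Rises among the 47 numbered 1 with the length trend removed, 1 with chromosomes I and II also left out, 1 at a threshold of 0.01 and 0 against a minimum change of 1.2-fold. Against that minimum change 27 of the 47 fell (16.6% of all genes), as did 11 of the other 45 genes of 40S assembly, and 907 of all genes fell and 846 rose.

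The replicate number as a block gave 40 falls and 2 rises among the 47, with a median of -0.54, and changed no call among them. With the length trend also removed it gave 32 falls, 1 rise and a median of -0.36. Among all 5449 genes the block gave 2224 falls and 1603 rises, and 1778 and 1682 with the length trend also removed. Leaving out 1 array at a time gave 38 to 41 falls and 1 to 2 rises among the 47, a median from -0.57 to -0.47, 25 to 26 falls among the other 45 genes, and 1939 to 2195 falls and 1420 to 1614 rises among all genes.

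Removing the length trend, with or without the replicate block, turned 7 of the 47 genes: UTP9 to 0.032, UTP10 to 0.20, UTP18 to 0.020, UTP21 to 0.051, NHP2 to -0.21, UTP22 to 0.039 and NOC4 to 0.011. With chromosomes I and II also left out, UTP9 was at 0.015, UTP10 at 0.17, UTP18 at 0.0030, UTP21 at 0.020, NHP2 at -0.24 and UTP22 at 0.0085. Of the 7, UTP21, UTP22 and NHP2 had passed before, and UTP10 and NHP2 passed after. The correction rests on gene length alone. It also gave a rise of the deleted SSE1 (0.20, limma adjusted p = 0.0305), as large as that of UTP10. A rise of that size in the corrected fit can thus arise without a transcript. SSE1 was at background and UTP10 was not, so SSE1 gives no measure of the error for UTP10.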
